A study of Mus musculus with 6 samples.

Results

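Collagens are the main structural proteins of the extracellular matrix, and the genes described here are the collagen chain genes of the mouse habenula, a small epithalamic brain region. The members are the rows of the deposited table whose whole gene symbol is Col, digits, a, digits. After 2 further matching genes were left out by the same rule, 42 of 55359 genes remained, namely 11 fibrillar chains, 6 basement membrane chains of type IV and 25 chains of other types. RNA sequencing of total RNA gave 3 libraries labelled Tet2 cKO (conditional knockout of Tet2, which encodes a dioxygenase acting on methylated DNA) and 3 wild-type (WT) libraries. All came from the habenula of C57BL/6 mice aged 2 months, and no other treatment or allele is given. No source used here names the Cre driver or the exons removed, or says that the libraries are from different animals. The p-values therefore measure the spread between these libraries, which may be technical.

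A collagen molecule is a rope-like helix of α chains whose sequence repeats glycine at a fixed spacing. Fibrillar collagens assemble into fibrils that resist tension, type IV collagens form the sheet-like network of basement membranes, and the other types bind to fibrils, anchor cells or form finer filaments. In the brain, collagen is sparse in the neuropil and is found mainly in the basement membranes of blood vessels, in the meninges and perivascular fibroblasts, and in the stroma of the choroid plexus. The gene structure of the classes differs, since fibrillar collagen genes are built largely of short exons that each code for whole repeats. In GENCODE M21 annotation, 305 of the 649 coding exons of the 11 fibrillar genes (47.0%) were exactly 54 bases long, against 4.05% in the type IV genes, 14.5% in the other types and 0.674% over all protein-coding genes.

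Library totals lay between 16089676 and 17917987 counts. Tet2 itself stood at 4.47, 4.02 and 3.96 FPKM (fragments per kilobase of exonic sequence, scaled to library size) in the libraries labelled Tet2 cKO, against 3.45, 3.46 and 3.71 FPKM in WT, so its whole-gene level was not lower under the label. Every direction below is therefore that of libraries labelled Tet2 cKO. All 10 habenula neuron markers examined stood at a mean of at least 1 FPKM, among them Gpr151, at 71.7, 50.3 and 66.6 FPKM in Tet2 cKO-labelled libraries, against 60.2, 81.0 and 37.5 FPKM in WT, and Calb2. Every marker of this list except Calb2 was lowest in WT replicate 3, where Calb2 was highest (332.0 FPKM). In the chains tested, WT replicate 3 held the highest value in 10 of 21 and Tet2 cKO replicate 2 the lowest in 10 of 21.

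No collagen chain passed the test between libraries labelled Tet2 cKO and WT. Of the 42 chains, 21 averaged 1 FPKM or more across all 6 libraries and were tested, in a fit over 14539 genes. The edgeR quasi-likelihood test called 0 of the 21 at a Benjamini-Hochberg adjusted p under 0.05, against 0.00% of all tested genes. At an unadjusted p under 0.05 there were 2 chains lower under the Tet2 cKO label, Col18a1 and Col8a2, and 0 higher, against 1.68% of all tested genes lower and 0.894% higher. Of the tested chains 14 were lower and 7 higher, with log2 differences from -0.59 to 0.31 and a median of -0.06, against a median of -0.0021 over all tested genes, of which 50.9% were lower. This split turned with single libraries: without WT replicate 3 it was 10 lower and 11 higher with a median of 0.03, and without Tet2 cKO replicate 2 it was 9 lower and 12 higher with a median of 0.02. The median standard error of a chain was 0.174, above the 0.111 of all tested genes, and in bulk tissue fewer cells of a type and less RNA per cell cannot be told apart. The edgeR count of 0 genes over the whole table compares with 374 at an unadjusted p under 0.05 (2.57%), and with 4 past the adjusted threshold by DESeq2. Without WT replicate 3 it was 3 genes, none a chain. At an unadjusted edgeR p under 0.05 that fit had 3 chains lower and 3 higher, beside 865 genes over the whole table. Without Tet2 cKO replicate 1 there were 4 chains lower and 0 higher, beside 465 genes.

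**Figure D1:**
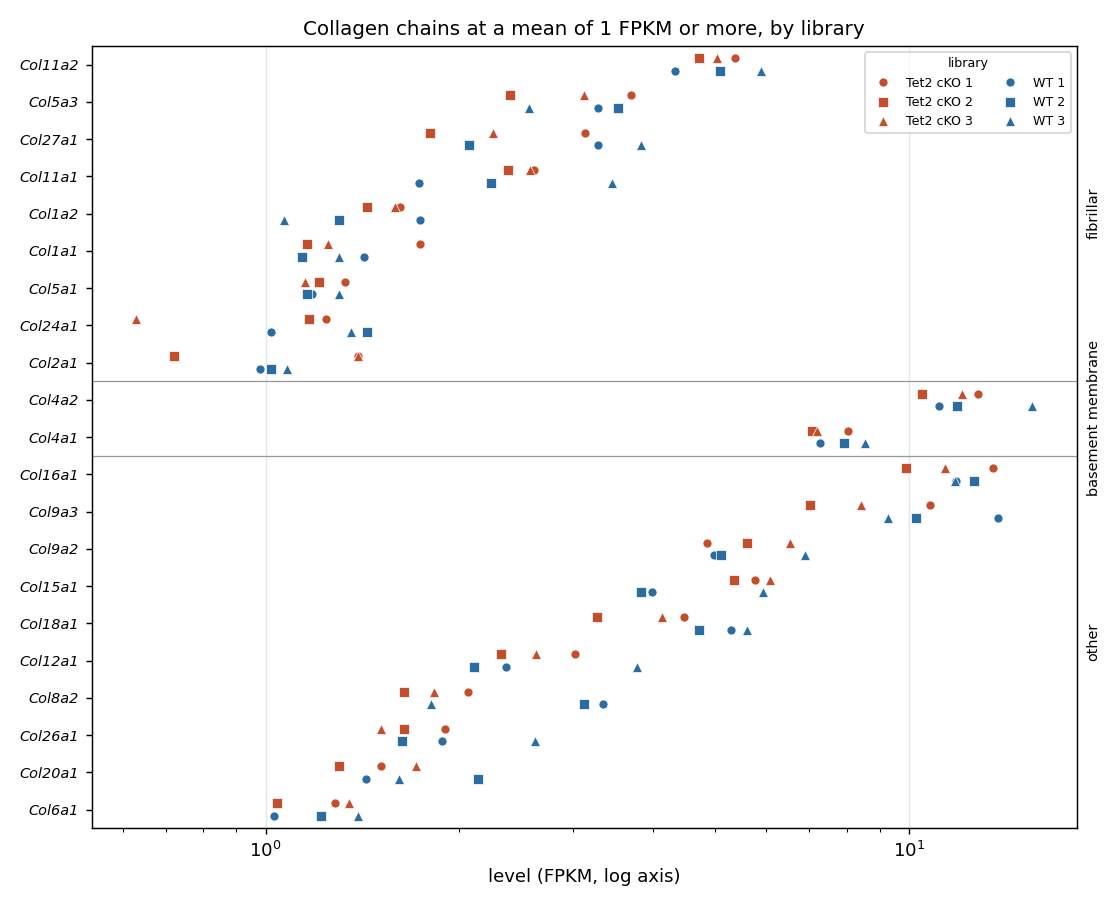
Level of each of the 21 tested collagen chains in every library, in FPKM on a log axis, with libraries labelled Tet2 cKO in red above those of WT in blue and replicates 1, 2 and 3 as circles, squares and triangles. The type IV chains Col4a2 and Col4a1 and the fibril-associated chains Col16a1 and Col9a3 are the highest, and only Col18a1 has groups that do not overlap.

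The level of collagen RNA in the habenula was spread over many chains rather than held by fibrillar collagen. Summed over all 42 chains it was 100.2, 80.2 and 91.1 FPKM in the libraries labelled Tet2 cKO, against 94.7, 92.6 and 104.4 FPKM in WT. The ranges overlapped, with the lowest sum in Tet2 cKO replicate 2 and the highest in WT replicate 3. Fibrillar chains held 22.8% of the sum under the Tet2 cKO label and 21.5% in WT, type IV chains 23.0% under the label and 23.2% in WT, and the other types 54.2% under the label and 55.2% in WT. These shares depend on the exonic size that FPKM divides by, which pools all annotated transcripts. In counts, fibrillar chains exceeded type IV chains in every library, at 3776 against 2761 in Tet2 cKO replicate 1 and 3201 against 2522 in WT replicate 1. The 4 highest chains, Col4a2, Col16a1, Col9a3 and Col4a1, had mean levels of 12.3, 11.8, 9.91 and 7.67 FPKM and together made up 44.4% of the summed mean. In all, 7 chains stood at a mean of 5 FPKM or more, 14 between 1 and 5, 17 between 0.1 and 1, and 4 under 0.1.

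**Figure D2:**
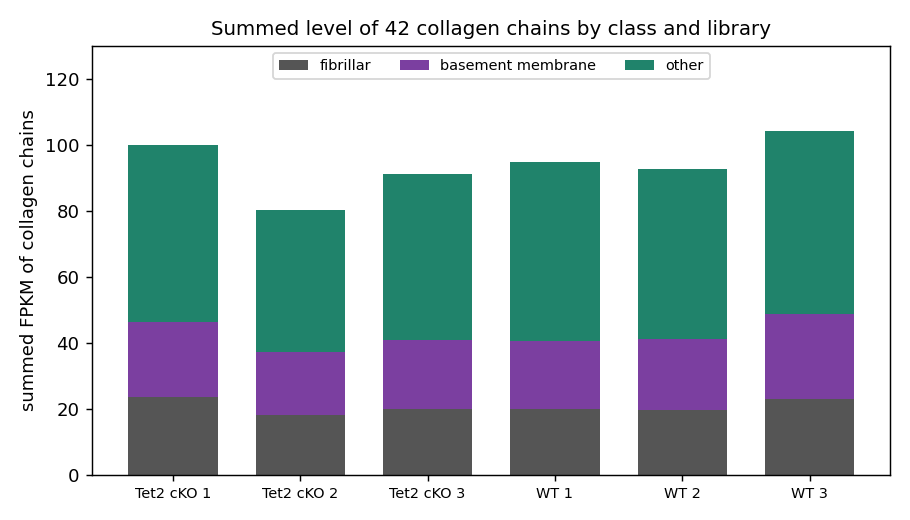
Summed FPKM of the 42 collagen chains in each library, stacked by class, with libraries labelled Tet2 cKO on the left and WT on the right. Totals run from 80.2 in Tet2 cKO replicate 2 to 104.4 in WT replicate 3, and the shares of the classes are alike across libraries.

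Fibrillar chains showed no difference beyond the spread between libraries. Of the 11 chains 9 were tested, 4 lower and 5 higher under the Tet2 cKO label, with a median log2 difference of 0.01, and 0 had an unadjusted p under 0.05. Without Tet2 cKO replicate 1 there were 7 lower and 2 higher, and without Tet2 cKO replicate 2 there were 2 lower and 7 higher. Their summed level was 20.6 ± 2.79 FPKM in Tet2 cKO-labelled libraries and 20.9 ± 1.74 FPKM in WT (SD, n = 3 each). The highest was Col11a2, a chain of the type XI collagen that nucleates thin fibrils in cartilage, at 5.37, 4.71 and 5.02 FPKM in Tet2 cKO-labelled libraries, against 4.33, 5.08 and 5.89 FPKM in WT. Its log2 difference was -0.03 (95% interval -0.29 to 0.23). Its partner Col11a1 stood at 2.61, 2.38 and 2.58 FPKM in Tet2 cKO-labelled libraries, against 1.73, 2.24 and 3.45 FPKM in WT, where the values spread widely around those of the other group. Its log2 difference of 0.02 (SE 0.203) was 0.35 without WT replicate 3, the library with the highest value, with an unadjusted edgeR p of 0.00851. In that fit 865 genes over the whole table had an unadjusted p under 0.05, against 374 with all libraries.

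Type I collagen, the main fibril-forming collagen of skin, bone and meninges, stood near the lower limit of testing. Col1a1, which encodes its α1 chain, had 1.74, 1.16 and 1.25 FPKM in Tet2 cKO-labelled libraries, against 1.42, 1.14 and 1.30 FPKM in WT, a log2 difference of 0.10 (SE 0.178). Col1a2, which encodes its α2 chain, had 1.62, 1.44 and 1.59 FPKM in Tet2 cKO-labelled libraries, against 1.74, 1.30 and 1.07 FPKM in WT, a log2 difference of 0.17 (SE 0.161). Both chains overlapped between groups, and Tet2 cKO replicate 1 held the highest Col1a1 value. Without that library the Col1a1 difference was -0.098, and without WT replicate 1 that of Col1a2 was 0.39 with an unadjusted p of 0.0159, in edgeR fits that leave out 1 library. WT replicate 1 held the highest Col1a2 value, so leaving it out raises that difference. Col3a1, the chain of type III collagen that accompanies type I in soft tissue and vessel walls, was under the filter, with 107, 103 and 83 counts in Tet2 cKO-labelled libraries against 71, 79 and 76 in WT. Every count under the label was above every WT count, but the FPKM groups overlapped, since WT replicate 2 had the smallest library.

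Type V collagen regulates the diameter of fibrils. Its chain Col5a3 stood at 3.70, 2.40 and 3.12 FPKM in Tet2 cKO-labelled libraries, against 3.29, 3.53 and 2.57 FPKM in WT, with groups that overlapped throughout. Col5a1 stood at 1.33, 1.21 and 1.15 FPKM in Tet2 cKO-labelled libraries, against 1.18, 1.16 and 1.30 FPKM in WT, a log2 difference of 0.01 (95% interval -0.26 to 0.29). Col5a2, under the filter, had 156, 108 and 98 counts in Tet2 cKO-labelled libraries against 103, 55 and 110 in WT, and a log2 difference of 0.38 (SE 0.202) in a fit without the filter. Col2a1, the chain of cartilage collagen, stood at 1.39, 0.72 and 1.39 FPKM in Tet2 cKO-labelled libraries, against 0.98, 1.02 and 1.08 FPKM in WT. Its spread under the label came from Tet2 cKO replicate 2, without which the log2 difference was 0.43 with an unadjusted p of 0.0121, against 0.17 with all libraries. Leaving out the library that stands apart makes a smaller p likely. Among the tested fibrillar chains, the largest fitted differences were those of the more divergent Col27a1 and Col24a1. Col27a1 stood at 3.13, 1.80 and 2.26 FPKM in Tet2 cKO-labelled libraries, against 3.29, 2.07 and 3.83 FPKM in WT, a log2 difference of -0.37 (SE 0.234), which was -0.60 without Tet2 cKO replicate 1 and -0.17 without WT replicate 3. Col24a1 stood at 1.24, 1.17 and 0.63 FPKM in Tet2 cKO-labelled libraries, against 1.02, 1.44 and 1.36 FPKM in WT, a log2 difference of -0.33 (SE 0.244), which was -0.083 without Tet2 cKO replicate 3, the library with the low value.

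**Figure D3:**
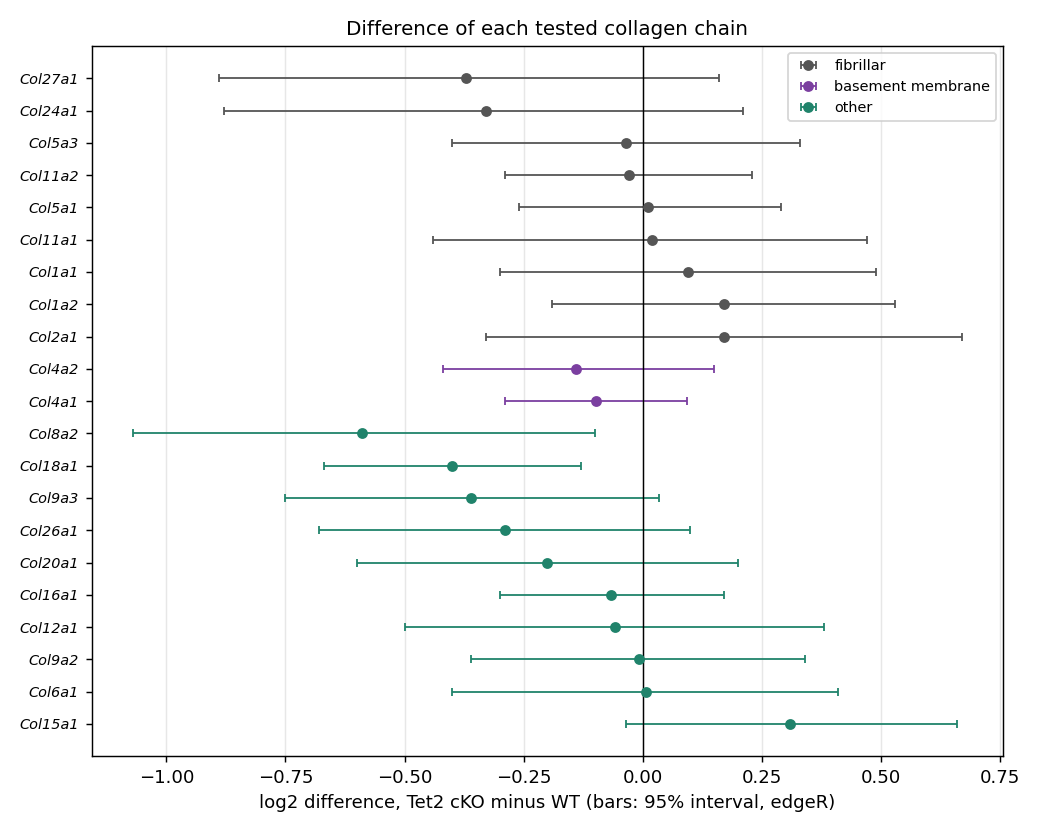
Log2 difference of each tested chain, Tet2 cKO minus WT, with 95% intervals from the edgeR fit over all tested genes, grouped by class. The intervals of Col8a2 (-1.07 to -0.10) and Col18a1 (-0.67 to -0.13) lie below 0 and those of the other 19 chains include 0; none of the 21 passed after adjustment over all genes.

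Basement membrane collagen of type IV was the most abundant single type. Its ubiquitous chains Col4a1 and Col4a2, which assemble together in the basement membranes of blood vessels, both had intervals that include 0. Col4a2, on the plus strand of chromosome 8 (GRCm38 11312805 to 11449287), was measured at 12.77, 10.46 and 12.06 FPKM in Tet2 cKO-labelled libraries, against 11.12, 11.85 and 15.52 FPKM in WT. Its log2 difference of -0.14 (95% interval -0.42 to 0.15) turned to 0.036 without WT replicate 3, which held the highest value. Col4a1 (minus strand, 11198423 to 11312826) stood at 8.03, 7.07 and 7.19 FPKM in Tet2 cKO-labelled libraries, against 7.28, 7.92 and 8.53 FPKM in WT, a log2 difference of -0.10 (95% interval -0.29 to 0.09). The genes lie head to head and their annotated starts overlap by 22 bases, and without strand information in the counting, reads there cannot be told apart. The level of Col4a1 relative to Col4a2 was close to constant, at 0.634 ± 0.0401 under the Tet2 cKO label and 0.624 ± 0.065 in WT (SD, n = 3 each). Endothelial markers, whose cells make much of this collagen, summed to 116.3 to 133.3 FPKM in Tet2 cKO-labelled libraries and 126.4 to 134.0 FPKM in WT, with 9 of 12 lower, 3 higher and 0 at an unadjusted p under 0.05.

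The tissue-restricted type IV chains were all under the filter and have no test in the fit. Col4a3 and Col4a4, which replace the ubiquitous chains in the basement membranes of kidney glomerulus, lung and inner ear, had almost the same count as each other in every library. Col4a3 had 44, 40 and 44 counts in Tet2 cKO-labelled libraries, against 56, 61 and 54 in WT. Col4a4 had 43, 39 and 45 counts in Tet2 cKO-labelled libraries, against 56, 64 and 55 in WT. In both genes every library labelled Tet2 cKO lay below every WT library, and the ratio of their counts stayed between 0.953 and 1.03 over the 6 libraries. An edgeR fit without the filter gave log2 differences of -0.48 (SE 0.258) for Col4a3 and -0.53 (SE 0.257) for Col4a4, with an adjusted p of 0.970 for each. Exons of Col4a3 overlap C430014B12Rik on the opposite strand.

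Col4a3 and Col4a4 lie head to head on chromosome 1 with 71 bases between their annotated starts. That gap is shown because it is the whole of the sequence between the pair. It is chr1:82586850-82586920 (GRCm38.p6, RefSeq, minus strand, 5′ to 3′ toward Col4a4), and capitals mark CG dinucleotides, the context in which most DNA methylation of mammals is found. DNA methylation was not measured in this series.
Col4a4 to Col4a3: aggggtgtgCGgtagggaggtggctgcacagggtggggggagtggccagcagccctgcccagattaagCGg
The gap holds 2 CG dinucleotides at a G and C content of 69.0%, and GGGCGG, the GC box, was not found on either strand. The 250 bases before the start of Col4a4, which run past the gap, held 10 CG dinucleotides, and those before Col4a1 and Col4a2 held 31 and 26, against a median of 6 over 32851 promoter windows of the same length.

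The X-linked pair Col4a5 and Col4a6, which lie head to head with 1308 bases between them, did not share a direction in each library. Col4a5 had the highest mean of the chains under the filter, at 0.89 FPKM, with 119, 105 and 84 counts in Tet2 cKO-labelled libraries against 134, 75 and 108 in WT. Col4a6 had 35, 38 and 47 counts in Tet2 cKO-labelled libraries, against 63, 33 and 41 in WT. Both overlapped between groups.

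The multiplexins, chains of basement membrane zones whose cleaved ends give rise to fragments such as endostatin, differed in opposite fitted directions. Col18a1, the endostatin precursor (GRCm38 chromosome 10, minus strand, 77052178 to 77166548), was measured at 4.47, 3.27 and 4.13 FPKM in Tet2 cKO-labelled libraries, against 5.28, 4.72 and 5.59 FPKM in WT. It was the 1 tested chain whose groups did not overlap, against 3.46% of all tested genes with Tet2 cKO below WT and 3.34% above, 6.80% in all. Without Tet2 cKO replicate 1 there were 4 such chains below, and without WT replicate 3 there were 2 below and 2 above. Groups separate more easily with 1 library fewer, and the share over all genes was not computed for those splits. Its level was 0.756-fold that of WT, a log2 value of -0.40 (95% interval -0.67 to -0.13), with an unadjusted edgeR p of 0.0077 that did not pass after adjustment (adjusted p = 0.9999). Leaving out each library gave -0.50 to -0.28, with unadjusted edgeR p between 0.00427 and 0.036. Col15a1, which encodes a related chain of vessels and muscle (plus strand of chromosome 4, 47208161 to 47313167), stood at 5.77, 5.34 and 6.07 FPKM in Tet2 cKO-labelled libraries, against 3.98, 3.83 and 5.93 FPKM in WT. The groups overlapped through WT replicate 3 alone, and the log2 difference was 0.31 (SE 0.155). Its unadjusted p was 0.0729 and its edgeR adjusted p 0.9999. Without WT replicate 3 the difference was 0.55, with an unadjusted p of 7e-05 and an edgeR adjusted p of 0.113. Leaving out the library behind the overlap makes a smaller p likely. In that fit 865 genes over the whole table had an unadjusted p under 0.05, against 374 with all libraries. Exons of Col15a1 overlap Gm12426 on the opposite strand. The sum of the multiplexin chains was 9.68 ± 0.93 FPKM in Tet2 cKO-labelled libraries and 9.78 ± 1.55 FPKM in WT (SD, n = 3 each).

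Col8a2 had the largest fitted difference of any tested chain. It encodes a chain of the short-chain type VIII collagen, a component of Descemet's membrane of the cornea and of vessel walls, and lies on the plus strand of chromosome 4, 126286793 to 126314330. Its level was 2.06, 1.64 and 1.83 FPKM in Tet2 cKO-labelled libraries, against 3.34, 3.12 and 1.81 FPKM in WT. WT replicates 1 and 2 stood above all others, and WT replicate 3 fell within the range of the libraries labelled Tet2 cKO. The log2 difference was -0.59 (SE 0.215), with an unadjusted edgeR p of 0.022 and an adjusted p of 0.9999. It was -0.81 without WT replicate 3, with an unadjusted p of 7.59e-05 and an edgeR adjusted p of 0.113. Leaving out the library behind the overlap makes a smaller p likely, and 865 genes had an unadjusted p under 0.05 in that fit. The difference was -0.42 without WT replicate 1, with an unadjusted p of 0.0999. The unadjusted p was also above 0.05 without Tet2 cKO replicate 2 (0.0763), Tet2 cKO replicate 3 (0.0582) or WT replicate 2 (0.0655), in edgeR fits that leave out 1 library.

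The stretches before the starts of these 3 genes are shown because among the 21 tested chains they have the lowest 2 fitted differences and the highest. Each is from RefSeq on GRCm38.p6, 5′ to 3′ on the gene's strand, trimmed to end before any annotated exon, with CG dinucleotides in capitals. They are chr10:77166549-77166780 for Col18a1, chr4:126286544-126286792 for Col8a2 and chr4:47207762-47208011 for Col15a1. The stretches of Col18a1 and Col8a2 adjoin the GENCODE starts printed above, whereas that of Col15a1 ends short of its GENCODE start at 47208161.
Col18a1: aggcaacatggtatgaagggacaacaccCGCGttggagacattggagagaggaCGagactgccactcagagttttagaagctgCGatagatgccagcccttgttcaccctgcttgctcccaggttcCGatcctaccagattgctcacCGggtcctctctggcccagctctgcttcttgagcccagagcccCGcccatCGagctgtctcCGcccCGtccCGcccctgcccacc
Col8a2: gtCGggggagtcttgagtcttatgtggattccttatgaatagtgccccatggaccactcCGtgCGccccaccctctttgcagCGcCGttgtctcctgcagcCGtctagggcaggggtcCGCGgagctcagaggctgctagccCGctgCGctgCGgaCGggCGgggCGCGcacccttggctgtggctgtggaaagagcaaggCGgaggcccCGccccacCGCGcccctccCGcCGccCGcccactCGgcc
Col15a1: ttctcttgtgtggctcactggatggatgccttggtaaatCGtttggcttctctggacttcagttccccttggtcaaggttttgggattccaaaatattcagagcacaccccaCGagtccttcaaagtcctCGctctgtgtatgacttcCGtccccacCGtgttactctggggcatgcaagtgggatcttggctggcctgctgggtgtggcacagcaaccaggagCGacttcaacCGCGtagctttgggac
Counted on both strands without overlapping matches, Col18a1 and Col8a2 each hold 3 copies of GGGCGG, and Col15a1 holds 0. A further match in Col8a2 overlaps a counted match. The stretches of Col18a1, Col8a2 and Col15a1 hold 11, 23 and 8 CG dinucleotides. GGGCGG was present on either strand in 32.7% of all promoter windows and in 20 of the 36 windows of the 33 members that had one. A second window of Col18a1, at its inner start, held 3 CG dinucleotides and 0 copies of GGGCGG, and a whole-gene count cannot tell transcripts of the starts apart.

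Fibril-associated chains, which sit on the surface of fibrils and have interrupted helices, held more of the summed FPKM than any other subclass, at 34.6% under the Tet2 cKO label and 35.5% in WT. Of 9 such chains 5 were tested, and all 5 had log2 differences below 0, from -0.36 to -0.0083, with 0 at an unadjusted p under 0.05. Without Tet2 cKO replicate 2 there were 2 lower and 3 higher, and without WT replicate 3 there were 3 lower and 2 higher. Col16a1, found near basement membranes and at fibril surfaces, stood at 13.51, 9.89 and 11.37 FPKM in Tet2 cKO-labelled libraries, against 11.82, 12.59 and 11.80 FPKM in WT. Its log2 difference was -0.07 (95% interval -0.30 to 0.17). Col9a3 (plus strand of chromosome 2, 180597790 to 180622189), a chain of the type IX collagen of cartilage and vitreous, stood at 10.76, 7.01 and 8.42 FPKM in Tet2 cKO-labelled libraries, against 13.76, 10.23 and 9.27 FPKM in WT. Only Tet2 cKO replicate 1 reached the WT range. The log2 difference was -0.36 (SE 0.174), with an unadjusted p of 0.0698 and an edgeR adjusted p of 0.9999. It was -0.53 without Tet2 cKO replicate 1 and -0.17 without WT replicate 1. Exons of Col9a3 overlap Tcfl5 on the opposite strand. Its partner Col9a2 stood at 4.85, 5.59 and 6.54 FPKM in Tet2 cKO-labelled libraries, against 4.97, 5.10 and 6.90 FPKM in WT, a log2 difference of -0.0083 (SE 0.156) whose sign changed between settings. The ratio of Col9a2 to Col9a3 varied more between libraries than that of Col4a1 to Col4a2, at 0.451, 0.797 and 0.777 under the Tet2 cKO label against 0.361, 0.499 and 0.744 in WT. Col9a1, the remaining chain of the type, had 53, 45 and 55 counts in Tet2 cKO-labelled libraries against 49, 27 and 32 in WT.

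The other fibril-associated chains were lower in level. Col12a1, a chain of tendon and ligament fibrils, stood at 3.03, 2.32 and 2.63 FPKM in Tet2 cKO-labelled libraries, against 2.36, 2.11 and 3.78 FPKM in WT. WT replicate 3 alone lay above the other group, and the log2 difference of -0.058 became 0.25 without it. Col20a1 stood at 1.51, 1.30 and 1.71 FPKM in Tet2 cKO-labelled libraries, against 1.43, 2.14 and 1.61 FPKM in WT, and its exons overlap BX649560.1 on the same strand, so its counts are uncertain.

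**Figure D4:**
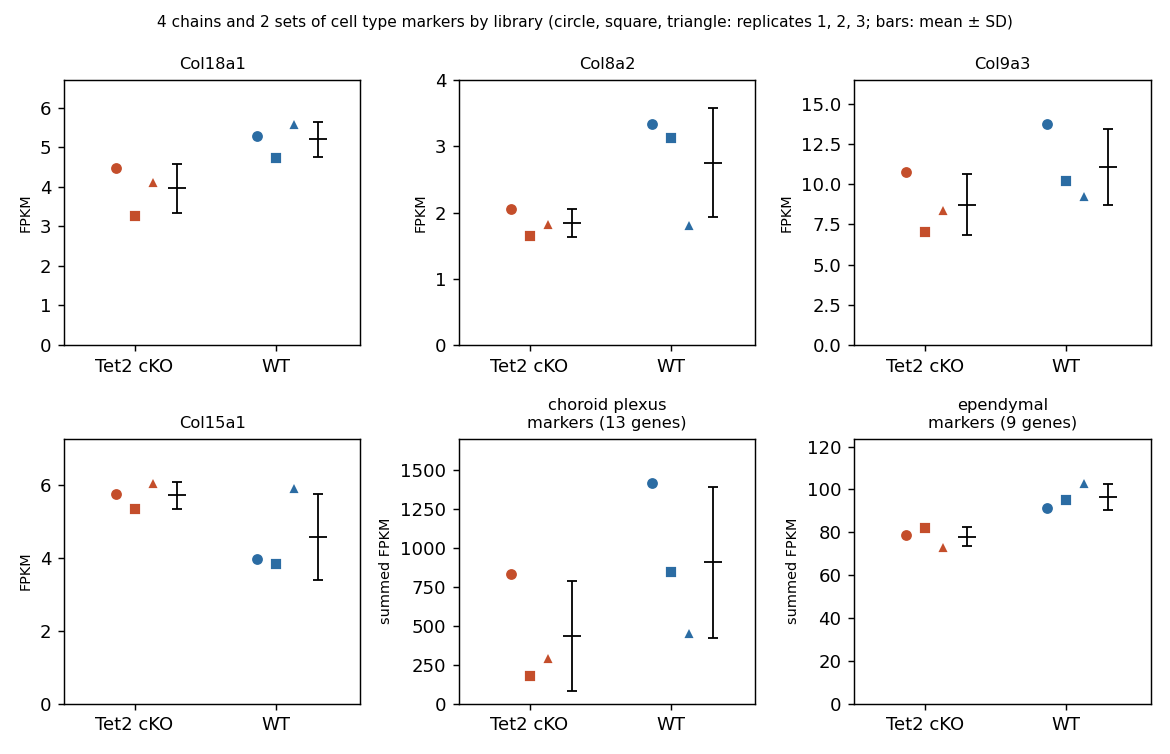
Level of Col18a1, Col8a2, Col9a3 and Col15a1 (FPKM) and summed level of 13 choroid plexus and 9 ependymal markers in each library, with libraries labelled Tet2 cKO on the left and WT on the right of each panel, and the mean ± SD of 3 libraries beside the points. The choroid plexus sum, most of which is Ttr, is lowest in Tet2 cKO replicate 2 (175.7) and highest in WT replicate 1 (1419.1). The levels of Col9a3 (7.01 and 13.76) and Col8a2 (1.64 and 3.34) are lowest and highest in the same libraries. Tet2 cKO replicate 2 is the lowest library in 10 of the 21 tested chains. Col18a1 is highest in WT replicate 3 (5.59), where the choroid plexus sum is the lowest of WT (455.3) and the ependymal sum the highest of all (103.1).

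Markers of choroid plexus and ependyma, tissues beside the habenula, also had lower fitted values, and 0 of them passed an edgeR adjusted p of 0.05. Those of thalamus neurons were 4 lower and 4 higher. Over all tested genes, 1.68% were lower and 0.894% higher under the Tet2 cKO label at an unadjusted edgeR p under 0.05. Groups did not overlap in 3.46% with Tet2 cKO below WT and in 3.34% above. All 13 choroid plexus epithelium markers had lower fitted values under the Tet2 cKO label, 9 of them at an unadjusted p under 0.05 and 1 with groups that did not overlap. Among those 9, Aqp1 and Slc4a5 averaged under 1 FPKM under the label and passed the filter through WT. The summed level of the 13 markers was 834.7, 175.7 and 290.7 FPKM under that label, against 1419.1, 848.5 and 455.3 FPKM in WT. Most of that sum in every library was Ttr, at 799.3, 157.9 and 269.1 FPKM under the label, against 1346.6, 802.3 and 430.5 FPKM in WT. All 9 ependymal markers were lower too, 5 of them at an unadjusted p under 0.05 and 5 with groups that did not overlap. Their sums were 78.7, 82.2 and 73.1 FPKM in Tet2 cKO-labelled libraries, against 91.4, 95.2 and 103.1 FPKM in WT. Library by library, WT replicate 1 held the highest choroid plexus sum, Col8a2 and Col9a3, and Tet2 cKO replicate 2 the lowest of each. Among the 21 tested chains, Tet2 cKO replicate 2 was lowest in 10 and WT replicate 1 highest in 3. Col18a1 was highest in WT replicate 3, where the choroid plexus sum was the lowest of WT and the ependymal sum the highest of all. Every ependymal sum in WT was above every one under the label, as was the level of Col18a1. Tet2 cKO replicate 2 held the lowest Col18a1 but the highest ependymal sum of its group. No marker of either list was at 0 in all libraries. Their part in the values of Col18a1, Col8a2 and Col9a3 was not tested. Leptomeningeal and perivascular fibroblast markers, whose cells make fibrillar collagen, had 7 of 16 tested, 4 lower and 3 higher, with a median log2 difference of -0.045 and 1 at an unadjusted p under 0.05 (Aldh1a2, 0.62, groups not overlapping), and summed to 32.3 to 35.6 FPKM in Tet2 cKO-labelled libraries and 27.1 to 36.0 FPKM in WT. Of these markers 9 were under the filter, none was at 0 in all libraries, and Dpep1 in WT replicate 2 and Slc47a1 in WT replicate 3 were listed at 0. Dcn, which encodes a proteoglycan on collagen fibrils, stood at 3.48, 3.02 and 2.74 FPKM in Tet2 cKO-labelled libraries, against 3.95, 3.16 and 2.72 FPKM in WT. Both the highest and the lowest summed level of pericyte and smooth muscle markers were under the label, in Tet2 cKO replicates 1 and 2, against 91.5 to 95.2 FPKM in WT, with 4 of 10 lower, 6 higher and a median of 0.046. Astrocyte markers had 2 of 10 lower and 8 higher, with a median of 0.12. At an unadjusted p under 0.05 there were 3, Aqp4 (0.57) and Gja1 (0.22) higher and Sox9 (-0.26) lower, and 5 had groups that did not overlap. Medians were 0.085 for oligodendrocytes and their precursors, 0.056 for microglia, 0.015 for habenula neurons and -0.02 for thalamus neurons, with 1 marker of these lists at an unadjusted p under 0.05, Calb2 of the habenula list (-0.20).

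Chains of the finer filaments and of the cell surface were near or under the filter. Type VI collagen, which forms beaded filaments around cells, had 1 tested chain of 6. Col6a1 stood at 1.28, 1.04 and 1.35 FPKM in Tet2 cKO-labelled libraries, against 1.03, 1.22 and 1.39 FPKM in WT, a log2 difference of 0.0068 (95% interval -0.40 to 0.41). Its partner Col6a2 had 157, 118 and 149 counts in Tet2 cKO-labelled libraries, against 106, 99 and 133 in WT, with groups that overlapped. Col6a3, which completes the classical type VI molecule, averaged 0.157 FPKM in Tet2 cKO-labelled libraries and 0.173 FPKM in WT, well below Col6a1 on the same per-length scale. Col26a1, outside the main subfamilies, stood at 1.9, 1.64 and 1.51 FPKM in Tet2 cKO-labelled libraries, against 1.88, 1.63 and 2.62 FPKM in WT, a log2 difference of -0.29 (SE 0.175) that was -0.06 without WT replicate 3. Col7a1, the chain of anchoring fibrils of skin, had 175, 143 and 160 counts in Tet2 cKO-labelled libraries, against 100, 154 and 176 in WT.

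Among the 21 chains under the filter, 4 had FPKM groups that did not overlap, and in all 4 the libraries labelled Tet2 cKO were below WT. Over the 8357 genes under the filter with at least 10 counts in all, 5.13% were below and 3.97% above, 9.11% in all. Besides Col4a3 and Col4a4 they were Col23a1 and Col6a5. Col23a1, a transmembrane collagen, had 24, 36 and 34 counts in Tet2 cKO-labelled libraries, against 44, 35 and 70 in WT, which is 0.24, 0.35 and 0.33 FPKM against 0.44, 0.38 and 0.69 FPKM. Those values nearly meet between Tet2 cKO replicate 2 and WT replicate 2. The unfiltered edgeR fit gave -0.72 (SE 0.285), with an unadjusted p of 0.0132 and an adjusted p of 0.970. Col6a5, a type VI chain of skin and lung, had 1, 3 and 3 counts in Tet2 cKO-labelled libraries, against 7, 6 and 6 in WT, too few to give its size. Counting error alone is large for genes at this level, and no fit that held them gave an adjusted p under 0.05.

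**Figure D5:**
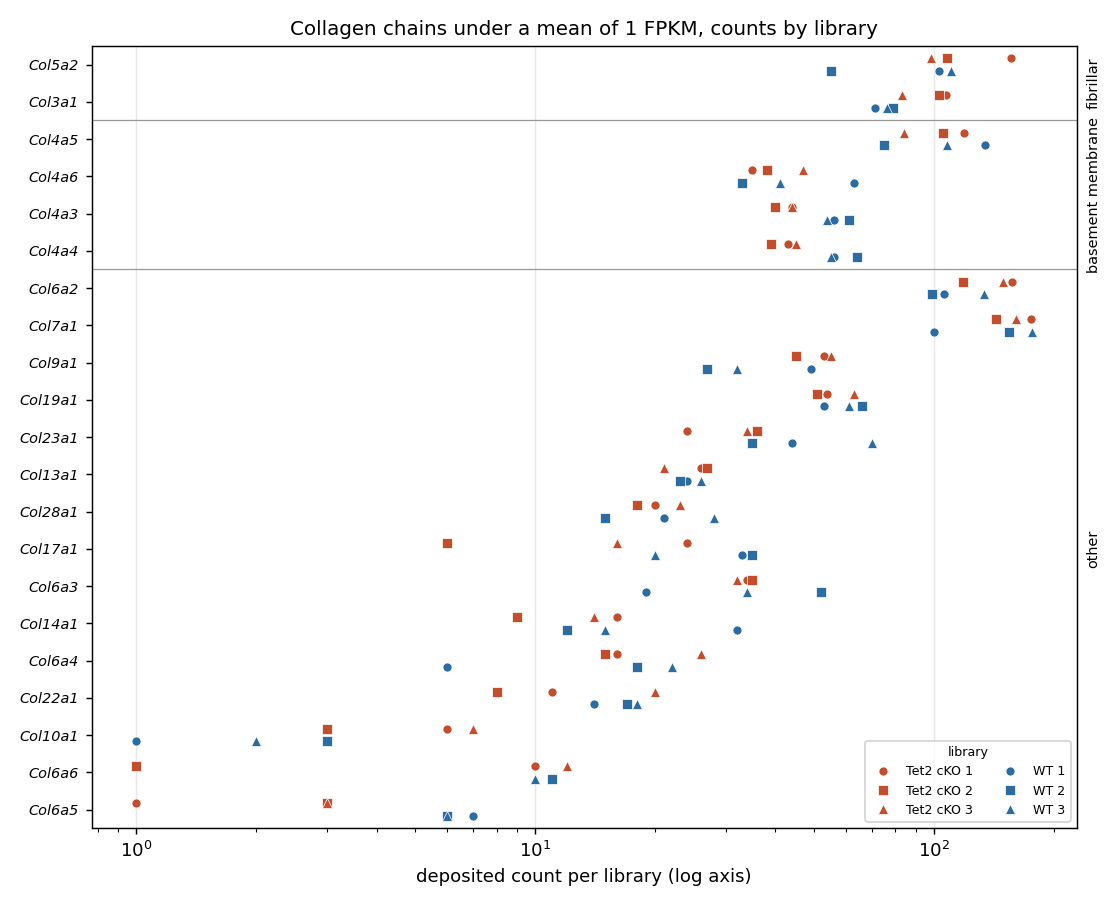
Deposited count in each library of the 21 chains under a mean of 1 FPKM, on a log axis, not scaled for library size, with libraries labelled Tet2 cKO in red above those of WT in blue. Col4a3 and Col4a4 both lie between 39 and 64 counts and their red points lie left of the blue ones, while Col10a1, Col6a5 and Col6a6 stay at 12 counts or fewer.

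The other 11 chains under the filter were Col4a6, Col9a1, Col10a1, Col13a1, Col14a1, Col17a1, Col19a1, Col22a1, Col28a1, Col6a4 and Col6a6. Their counts lay between 1 and 66 in every library, none was at 0 in any library, and their FPKM groups overlapped. Col17a1, a transmembrane chain of the skin's attachment to its basement membrane, had 24, 6 and 16 counts in Tet2 cKO-labelled libraries against 33, 35 and 20 in WT. The unfiltered edgeR fit gave -1.0 (SE 0.378), with an unadjusted p of 0.00959 and an adjusted p of 0.872.

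The ratio of partner chains of 1 type differed from pair to pair. On the FPKM scale Col1a1 relative to Col1a2 was 0.889 ± 0.161 under the Tet2 cKO label and 0.969 ± 0.215 in WT, and Col11a1 relative to Col11a2 was 0.502 ± 0.0143 under the Tet2 cKO label and 0.475 ± 0.0978 in WT (SD, n = 3 each). These levels divide by an exonic size that pools all annotated transcripts, 12426 bases for Col1a2 against 5348 in the transcript with its longest coding sequence. Per length of such a transcript Col1a1 to Col1a2 averaged 0.443 over the 6 libraries, against 0.927 on the FPKM scale, so the amount of a chain relative to its partner depends on the length used, while its comparison between groups does not.

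Genes that make, modify, bind and break down collagen gave few differences. Of 35 genes of biosynthesis and processing, 28 were tested, 18 lower and 10 higher, with a median log2 difference of -0.04 and 0 at an unadjusted p under 0.05. P4hb, a subunit of prolyl 4-hydroxylase, stood at 38.9 ± 1.16 FPKM in Tet2 cKO-labelled libraries and 39.2 ± 0.699 FPKM in WT, and Ppib, a prolyl isomerase of the endoplasmic reticulum, at 25.9 ± 1.07 FPKM under the label and 26.0 ± 0.987 FPKM in WT (SD, n = 3 each). Mia3, needed for export of collagen from the endoplasmic reticulum, differed by 0.019 (SE 0.141) on the log2 scale. The smallest p values of the list belonged to Pcolce, which speeds removal of the procollagen C-propeptide, at -0.53 (SE 0.252), Tmem38b, an ion channel of the endoplasmic reticulum, at 0.23 (SE 0.111), and P4ha2, a catalytic subunit of prolyl 4-hydroxylase, at -0.16 (SE 0.0983).

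Of 12 collagen receptors 4 were tested, 3 lower and 1 higher, with a median of -0.031 and 0 at an unadjusted p under 0.05. The integrin subunit Itgb1 stood at 20.3 ± 0.966 FPKM in Tet2 cKO-labelled libraries and 19.8 ± 2.27 FPKM in WT, the receptor kinase Ddr1 at 21.3 ± 1.21 FPKM under the label and 21.3 ± 2.86 FPKM in WT, and the adhesion receptor Adgrg1 at 14.5 ± 1.54 FPKM under the label and 14.9 ± 0.904 FPKM in WT (SD, n = 3 each). Lair1, an inhibitory receptor of immune cells, differed by -0.14 (SE 0.162).

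Breakdown enzymes and their inhibitors had 9 of 15 genes tested, 4 lower and 5 higher, with a median of 0.018. Timp1, an inhibitor of metalloproteinases, had the smallest p of the collagen-related lists, at 2.03 ± 0.482 FPKM in Tet2 cKO-labelled libraries and 0.737 ± 0.235 FPKM in WT (SD, n = 3 each; edgeR unadjusted p = 0.00193, adjusted p = 0.9999). Its WT values (0.72, 0.98 and 0.51 FPKM) were all under 1 FPKM, so Timp1 passed the filter only through the libraries labelled Tet2 cKO. Its relatives Timp2 and Timp3 had log2 differences of -0.071 (SE 0.0891) and 0.018 (SE 0.167). The membrane metalloproteinases Mmp14 and Mmp15 differed by 0.24 (SE 0.114) and -0.18 (SE 0.0829), neither at an unadjusted p under 0.05. Of 12 matrix partners 6 were tested, 1 lower and 5 higher, with a median of 0.04. Nid1, which links the type IV network to laminin, stood at 2.51 ± 0.21 FPKM in Tet2 cKO-labelled libraries and 2.03 ± 0.231 FPKM in WT (SD, n = 3 each). It was higher by 0.30 on the log2 scale (SE 0.119, edgeR unadjusted p = 0.0298, adjusted p = 0.9999). Sparc, a collagen-binding glycoprotein, its relative Sparcl1, the heparan sulfate proteoglycan Agrn and the matrix protein Vwa1 differed by -0.011, 0.055, 0.025 and 0.06, each by less than its standard error.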

How the data were processed

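Total RNA of habenula was sequenced in 3 libraries labelled Tet2 cKO and 3 WT libraries. The deposited table holds raw counts per gene and FPKM made by the authors. These FPKM equal the count divided by exonic size and library total, on the usual scale, within 0.005. The build mm10 is listed per the submitters' processing notes, with the tools SAMtools 0.1.19, HISAT2 2.0.1, cutadapt 1.9.1 and FastQC 0.10.1. No source used here names the counter, its strand setting or the annotation release.

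The table's coordinates differ from GENCODE M21 (the same start and end for 1494 of 52083 shared identifiers) and were not used. Positions printed are those of GENCODE M21 on GRCm38, joined by identifier.

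Genes that averaged 1 FPKM or more were tested on the counts with edgeR 4.0.16 (quasi-likelihood, TMM, two-sided, no covariate, Benjamini-Hochberg threshold 0.05) in R 4.3.3, and limma 3.58.1 and DESeq2 1.42.0 were alternatives. The fit was tested on simulated data. Members, classes and lists were chosen with earlier results of these data known. Every tested chain is named, with chains under the filter whose groups do not overlap or whose mean was among the 3 highest, 3 genes of each pathway list by level and 3 by p, and 2 markers of each cell type at most. Dcn, Aldh1a2, Gja1, Sox9, Aqp4, Dpep1, Slc47a1, Aqp1, Slc4a5, Col3a1, Col5a2, Col4a6, Col6a3, Col9a1 and Col17a1 were added after their values were seen. The labels do not say that replicate numbers pair animals, so no pairing was assumed. Deviations of same-numbered libraries from their group means had correlations of -0.0413, 0.176 and -0.102, which cannot decide whether the libraries are paired. No library was a copy of another (chi-square per gene 4.09 to 20.3 between any pair).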

Additional observations from a re-analysis of the deposited data

How the results depend on the processing

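No tested chain passed an adjusted p of 0.05 in any alternative, and the medians of the classes moved by less than the spread between replicates in each of them. Leaving out each library gave medians of -0.16 to 0.031 over all tested chains, so their sign was not stable. The sign also changed for fibrillar chains (-0.074 to 0.073) and type IV chains (-0.19 to 0.003). Medians of the other types stayed below 0, at -0.19 to -0.054. Over all genes the edgeR count of 0 (374 at an unadjusted p under 0.05) became 49 without a filter on low values, 2 with the filterByExpr filter and 4 by DESeq2, and leaving out each library gave 0 to 3. The number of tested chains lower at an unadjusted p under 0.05, which was 2, became 5 without a filter, 0 at a minimum of 5 FPKM, 1 by limma with either pseudocount and 4 with a replicate block, and leaving out each library gave 1 to 4. Chains higher, 0 at first, became 1 without a filter and 1 with a replicate block, and 0 to 3 without each library. Chains whose groups did not overlap numbered 1 to 4 below and 0 to 2 above without each library. Groups separate more easily with 1 library fewer, and no share over all genes was computed for those splits. No call after adjustment changed with the replicate block, and the samples share only a number.

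Of 21 chains 11 kept their direction in every alternative run. Those that reversed did so mainly without single libraries, with ranges of -0.23 to 0.036 for Col4a2, -0.18 to 0.35 for Col11a1, -0.13 to 0.10 for Col11a2, -0.098 to 0.21 for Col1a1, -0.044 to 0.073 for Col5a1, -0.18 to 0.12 for Col5a3, -0.22 to 0.25 for Col12a1, -0.19 to 0.036 for Col16a1, -0.097 to 0.13 for Col6a1 and -0.12 to 0.17 for Col9a2. Limma with a pseudocount of 1 or 0.1 gave 0.005 or 0.0064 for Col9a2 and 0.0012 or 0.0047 for Tet1, whose range without single libraries was -0.11 to 0.064. Per length of the longest coding transcript, a setting added after the data were seen, Col1a1 to Col1a2 averaged 0.443, Col4a1 to Col4a2 0.692 and Col11a1 to Col11a2 0.637, against 0.927, 0.629 and 0.489. The cause was not tested for the other changes. Depth limits the 21 chains under the filter, whose counts lay between 1 and 176 per library.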
